A study of Mus musculus with 16 samples.

Results

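The genes of mitochondrial fatty acid oxidation and ketogenesis were followed through the liver and the kidney of aged mice kept under a regular or a repeatedly advanced light–dark cycle. The group held 41 genes, chosen by symbol from a list of known members of the pathway, out of the 32989 genes quantified in each organ. All 41 symbols were found in both organs, and where a symbol occurred more than once the entry with the highest mean was taken. By role, 9 genes serve fatty acid entry and storage, 8 activation and acyl-CoA release, 4 the carnitine shuttle, 12 the beta-oxidation cycle, 3 electron transfer and 3 ketone bodies, and 2 are regulators.

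Fatty acids are taken up by transporters such as CD36 and SLC27A2 or released from lipid droplets by lipases, and are joined to coenzyme A by the acyl-CoA synthetases. The carnitine shuttle carries the long-chain acyl groups into the mitochondrion, with CPT1 as its rate-limiting step, and the beta-oxidation cycle shortens them in rounds of dehydrogenation, hydration, dehydrogenation and thiolysis. The liver turns much of the resulting acetyl-CoA into ketone bodies, which it cannot use itself because it lacks nearly all of the enzyme encoded by Oxct1, whereas the proximal tubule of the kidney burns both fatty acids and ketone bodies. Many of these genes are targets of the nuclear receptor PPAR-alpha, and several follow the time of day.

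RNA came from male C57BL/6J mice kept for 85 weeks, to an age of 97 weeks, either under a fixed cycle with light from 8:00 to 20:00 (LD) or under a cycle advanced by 8 hours every 4 days (ADV). Liver and kidney of 4 LD-conditioned mice (L63, L65, L86 and L104) and 4 ADV-conditioned mice (A75, A91, A94 and A115) were sequenced as 1 poly(A)-selected library each, 16 in all. The labels name no transgene and no agent, and the mice of both conditions were of the same strain, sex and age. According to the paper, the organs were collected within a window of hours counted from the last light-on. The hour of each mouse is not given in the sources used here. The libraries were sequenced by more than 1 provider, on different instruments, and which library came from which is not given in the sources used here. Provider can therefore be told apart neither from condition nor from organ. Values are in FPKM, which divides the fragments of a gene by its exon length and by the total of the library, and the values of single mice are always listed in the order L63, L65, L86, L104 for LD and A75, A91, A94, A115 for ADV.

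The livers held 22742500 to 26287000 fragments in all (21092500 to 24285100 on genes) and the kidneys 17115700 to 19702200 (15688500 to 18043300). By these library totals 1 fragment on 1 kb of exon was worth 0.0380 to 0.0440 FPKM in the liver and 0.0508 to 0.0584 FPKM in the kidney. The tissue labels held. Summed FPKM of 7 hepatocyte markers was 55190 to 67923 in the livers and 43.2 to 101 in the kidneys, and that of 6 proximal tubule markers was 20005 to 46498 in the kidneys and at most 0.116 in the livers. A pair of ADV libraries stood apart. The liver of A94 had a mean Pearson correlation of 0.941 with the other livers, against 0.977 to 0.982 for the rest, and the kidney of A115 one of 0.858, against 0.932 to 0.964. Genes of the mitochondrial genome took 33.8% of the fragments of the A115 kidney, 9.43% to 13.1% in the other ADV kidneys and 15.7% to 18.02% in the LD kidneys. Values without A94 or A115 are given beside the results that moved with them. These are bulk tissues, in which fewer cells of a type and less RNA per cell cannot be told apart.

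Promoters, here the 250 bases before each gene's start, were matched by symbol in the RefSeq promoter table (GRCm38.p6) for 36 of the 41 members, not for Cpt1b, Decr1, Acaa2, Acat1 and Angptl4. Motifs of the clock and of PPAR-alpha were searched on both strands. The E-box CACGTG, bound by CLOCK and BMAL1, was found in 3 of the 36 (Fgf21, Lipe and Mgll), which is 8.33%, against 6.02% of all 32851 promoters. The D-box TTANGTAA, bound by DBP and TEF, was found in Acsm3 only among the members and in 2.06% of all promoters. The spaced repeat AGGNCANAGGNCA, the kind that PPAR-alpha binds, was found in Fabp1 only among the members and in 0.338% of all promoters. A match is a run of letters and not a measured binding site. The sequences of Fabp1 (chr6:71199629-71199878, plus strand), which had the largest difference between the organs, and of Acsm3 (chr7:119760673-119760922, plus strand), which was lower in all 4 ADV kidneys than in any LD kidney, are shown 5′ to 3′ with the matched letters in capitals. In Fabp1 the match is the reverse complement of the repeat and starts 67 bases before the RefSeq gene start. That start lies upstream of the gene start in the deposited values (71199888). In Acsm3 the D-box letters occur at 2 places.
Fabp1: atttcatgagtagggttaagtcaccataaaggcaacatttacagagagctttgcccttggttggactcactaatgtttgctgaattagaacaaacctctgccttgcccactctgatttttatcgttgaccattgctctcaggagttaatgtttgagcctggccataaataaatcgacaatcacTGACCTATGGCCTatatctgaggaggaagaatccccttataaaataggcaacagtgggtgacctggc
Acsm3: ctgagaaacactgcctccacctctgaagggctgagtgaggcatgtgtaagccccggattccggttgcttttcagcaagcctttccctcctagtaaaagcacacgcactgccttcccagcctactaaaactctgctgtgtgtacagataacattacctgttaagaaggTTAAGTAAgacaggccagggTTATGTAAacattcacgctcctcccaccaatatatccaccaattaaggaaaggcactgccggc

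Between the organs the levels of most members differed. In a limma fit over all 16 libraries 40 members were tested, and 13 were higher in the liver and 11 higher in the kidney at an adjusted p under 0.05. Of all 14379 genes tested, 13.1% were higher in the liver and 61.5% higher in the kidney. Both shares depended on the scaling, and the median over all genes was −0.74 on the log2 scale. With scaling by the median ratio, which set that median to −0.01, 27 members were higher in the liver and 7 in the kidney, against 31.5% and 33.8% of all genes. The 8 members with the largest differences, named next, kept their direction and their call under both scalings.

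Fabp1, the cytosolic fatty acid binding protein of the hepatocyte, was at 2809 to 9457 FPKM in the livers (median 5585) and at 0.290 to 1.498 FPKM in the kidneys (median 0.755). The log2 difference, liver minus kidney, was 12.61 (SE 0.27, limma adjusted p = 2.0e-15). Plin5, a lipid droplet protein, followed with medians of 21.2 FPKM in the liver and 1.02 FPKM in the kidney (log2 difference 4.38). Acaa2, the thiolase that ends a round of beta-oxidation, had medians of 509.5 and 106.7 FPKM (2.41), and Acsl5, an acyl-CoA synthetase, had medians of 106.9 and 21.8 FPKM (2.27). For these 4 genes no library of either organ reached into the range of the other.

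In the other direction Oxct1, which starts the use of ketone bodies, was at 267 to 426 FPKM in the kidneys (median 377) and at 1.29 to 7.08 FPKM in the livers (median 1.59), a log2 difference of −7.43 (SE 0.23). Cpt1b, the muscle form of CPT1, had medians of 9.24 FPKM in the kidney and 0.348 FPKM in the liver (−4.17). Acot2, a mitochondrial thioesterase, had medians of 8.01 and 0.904 FPKM (−2.97), and Pdk4, a kinase that shuts off pyruvate dehydrogenase, had medians of 9.55 and 1.63 FPKM (−2.28). Among the uptake proteins Slc27a2 had a median of 1767 FPKM in the kidney against 468.7 FPKM in the liver, and Cd36 had medians of 131 and 31.8 FPKM. Etfa, Decr1, Hadha and Hadhb lay at like levels in FPKM, with log2 differences between −0.20 and 0.16, and none of these 4 passed the test, but all 4 were called higher in the liver with scaling by the median ratio.

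**Figure D1:**
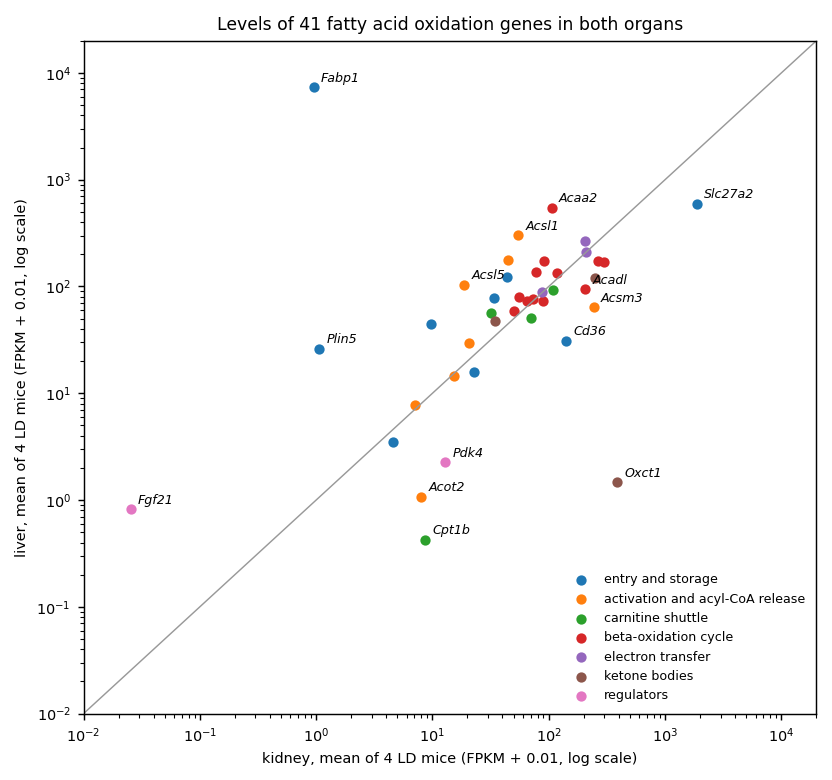
Mean FPKM of each of the 41 members over the 4 LD kidneys (horizontal axis) and the 4 LD livers (vertical axis), both on log scales with a small constant added so that a listed 0 can be drawn, coloured by role, with the diagonal marking equal levels. Fabp1 lies farthest above the diagonal, at 7334 FPKM in the liver and 0.942 FPKM in the kidney, and Oxct1 farthest below it, at 1.47 and 386 FPKM.

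In the ADV livers most members had a lower mean than in LD, and none of them passed the test across all genes. All 41 were tested among 12835 genes, and 0 were called at an adjusted p under 0.05, against 0.00779% of all genes (1 gene, not a member). By limma-voom on the fragments recovered from the values, 0 members were called as well. The log2 fold change, ADV minus LD, was below 0 for 34 of the 41, against 34.3% of all genes, and its median was −0.26 over the members and 0.10 over all genes. At an unadjusted p under 0.05, 11 members were lower and 1 was higher, against 3.13% and 8.65% of all genes. LD and ADV livers did not overlap in 4 members, Cpt1a, Acsm1, Slc27a2 and Angptl4, all lower in ADV, against 1.89% of all genes lower and 6.94% higher without overlap. With scaling by the median ratio the median of the members was −0.35 and that of all genes 0.01.

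The mice did not share this equally. Relative to the LD mean, the median deviation over the 41 members was −0.33 for A75, −0.40 for A94 and −0.21 for A115 but −0.04 for A91 on the log2 scale, while the LD livers lay between −0.08 and 0.07. A91 was therefore within the LD range, with 22 of 41 members under the LD mean, whereas A75, A94 and A115 had 36, 35 and 35. The LD livers had 12 to 30, with L86 the highest. A94 was the lowest ADV liver in 22 members and A75 in 13, and A91 was the highest in 22. Without A94 the median fold change of the members was −0.20, with 34 of the 41 below 0 against 45.9% of all genes, and without A91 the median was −0.32.

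**Figure D2:**
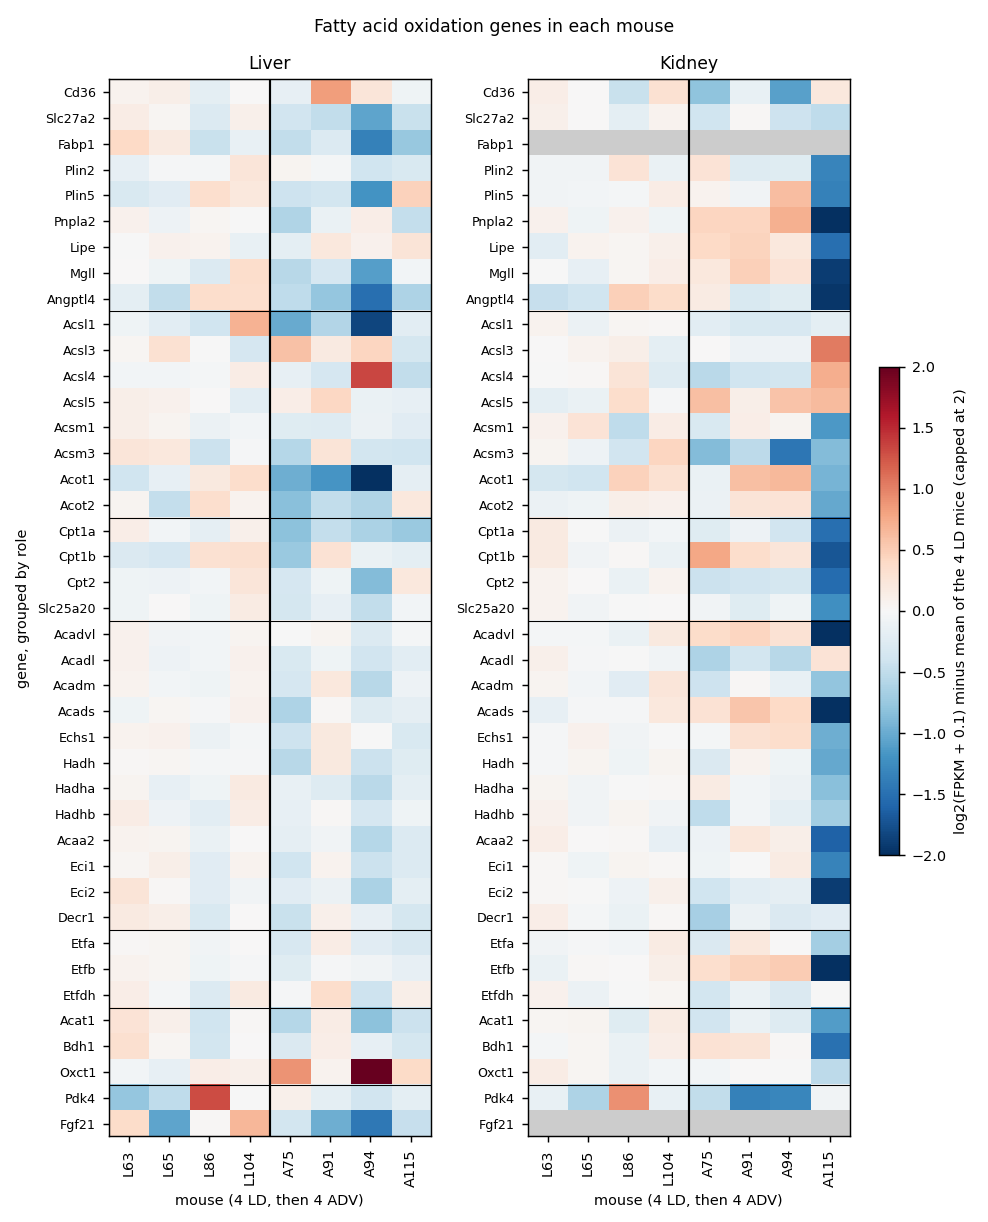
Deviation of every member from its LD mean in each mouse, as the difference of log2(FPKM + 0.1), with livers and kidneys drawn apart, members grouped by role, colours capped at 2 in either direction and grey for the 2 genes that failed the filter in the kidney. The livers of A75, A94 and A115 are below the LD mean in 36, 35 and 35 of 41 members and the liver of A91 in 22, and among the kidneys A115 has a median of −1.03.

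The carnitine shuttle held the smallest p of all members. Cpt1a, which encodes the liver form of CPT1 (chr19:3323301-3385733, plus strand), was at 102, 89.4, 81.7 and 99.0 FPKM in LD and at 52.6, 66.8, 59.5 and 55.1 FPKM in ADV, that is 93.0 ± 9.16 against 58.5 ± 6.23 FPKM (SD, n = 4 each). Every ADV liver was below every LD liver. The log2 fold change was −0.67 (SE 0.11), the limma adjusted p was 0.21, and the two-sided exact permutation p was 0.0286, the smallest that 4 against 4 mice allow. Leaving out 1 mouse at a time gave −0.73 to −0.62, with limma adjusted p-values from 0.0818 without A91 to 0.588 without L65. Slc25a20, the carrier that exchanges acylcarnitine for carnitine, was at 52.9, 56.3, 53.1 and 63.3 FPKM in LD and 44.3, 50.2, 40.1 and 54.4 FPKM in ADV (−0.26, SE 0.12, adjusted p = 0.42). Its groups overlapped through A115, and its exact permutation p was 0.0857. Cpt2, which returns the acyl group to coenzyme A inside the mitochondrion, was at 39.8, 47.4, 27.4 and 57.6 FPKM in ADV against 46.6 to 59.3 FPKM in LD (−0.27, and −0.43 to −0.07 with 1 mouse left out), and Cpt1b was at most 0.525 FPKM in every liver.

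In the beta-oxidation cycle all 12 genes had a log2 fold change below 0, within the narrow range of −0.30 to −0.07 (median −0.25), and 0 of them separated the groups. Without A94, 11 of the 12 lay below 0 (median −0.19). Acadl, the long-chain acyl-CoA dehydrogenase, was at 99.3, 87.8, 90.1 and 99.4 FPKM in LD and 76.0, 89.0, 72.3 and 81.1 FPKM in ADV (−0.24, SE 0.10, limma adjusted p = 0.387). Hadha, a subunit of the trifunctional protein, was at 60.4, 52.1, 54.8 and 66.2 FPKM in LD and 52.2, 48.7, 40.1 and 50.5 FPKM in ADV (−0.29, SE 0.12, adjusted p = 0.394). For both, only 1 ADV liver reached into the LD range, A91 for Acadl and A75 for Hadha. The largest negative value was that of Eci2 (−0.30, and −0.37 to −0.18 with 1 mouse left out) and the smallest that of Acadvl (−0.07, and −0.11 without A91 to 0.0026 without A94), which opens the cycle for very long chains and was at 142 to 178 FPKM in ADV against 163 to 182 FPKM in LD. The electron transfer genes Etfa, Etfb and Etfdh, which pass electrons from the acyl-CoA dehydrogenases to the respiratory chain, had values of −0.18, −0.13 and 0.01, with Etfa at −0.29 without A91, and Etfdh at −0.11 without A91 and 0.14 without A94.

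Of the 8 genes of activation and acyl-CoA release, 5 had a log2 fold change below 0 (median −0.24). Acsl1, the main long-chain acyl-CoA synthetase of the liver (chr8:46471037-46536051, plus strand), was at 270.2, 249.5, 218 and 469 FPKM in LD and 144, 192, 80.8 and 249 FPKM in ADV. L104 was well above the other LD livers and A94 well below the other ADV livers, and the groups overlapped through A115. Its log2 fold change was −0.91 (SE 0.35, limma adjusted p = 0.385), −0.60 without A94 and −1.14 without A115. Acot1, which splits acyl-CoA in the cytosol (chr12:84009502-84017670, plus strand), was at 22.1, 26.0, 33.2 and 37.2 FPKM in LD and 14.7, 12.7, 4.82 and 25.7 FPKM in ADV. Its log2 fold change of −1.23 (SE 0.43, adjusted p = 0.363) was the largest of the members in the liver, and was −0.78 without A94 and −1.58 without A115. Acot1 shares 16.5% of its 100-base windows with Acot2 and 4.79% with Acot3. Reads of the shared stretches may have been removed as poorly mapped, so that the values of these genes are uncertain. Acot2 was at 0.535 to 1.22 FPKM in ADV and 0.720 to 1.34 FPKM in LD.

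Acsm1, a medium-chain acyl-CoA synthetase (chr7:119617823-119662515, plus strand), was at 194, 185, 164.2 and 172 FPKM in LD and 151, 149.6, 163.8 and 153 FPKM in ADV. The groups did not overlap, but L86 and A94 nearly touched. It had a log2 fold change of −0.21 (SE 0.09, limma adjusted p = 0.414, exact permutation p = 0.0286). Acsl3, which serves lipid droplets, was at 7.87, 9.46, 7.66 and 6.03 FPKM in LD and 11.5, 8.70, 10.3 and 6.01 FPKM in ADV (0.21, SE 0.21, adjusted p = 0.657, and 0.09 without A75 to 0.40 without A115). Acsl4, which prefers arachidonic acid, was at 36.4 FPKM in the liver of A94 and at 10.2 to 12.9 FPKM in the other ADV livers, against 13.8 to 15.9 FPKM in LD. Its log2 fold change was therefore 0.09 with A94 and −0.33 without it, and 0.28 without A115.

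Among the genes of entry and storage, Slc27a2, a very long-chain acyl-CoA synthetase and transporter (chr2:126553024-126588243, plus strand), was at 651, 604, 487 and 635 FPKM in LD and 451, 419, 284 and 435 FPKM in ADV. Every ADV liver was below every LD liver, with means of 594 ± 74.2 and 397 ± 76.5 FPKM (SD, n = 4 each). On the log2 scale the difference was −0.59 (SE 0.17, limma adjusted p = 0.306, exact permutation p = 0.0286) and −0.44 without A94. Angptl4, a secreted inhibitor of lipoprotein lipase (chr17:33774900-33781575, minus strand), was at 66.2, 53.4, 96.4 and 95.2 FPKM in LD and 53.2, 44.0, 26.6 and 48.9 FPKM in ADV. These groups were separated only by the narrow gap between L65 and A75, and the log2 fold change was −0.85 (SE 0.25, adjusted p = 0.322, exact permutation p = 0.0286).

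Fabp1, the most abundant member in the liver, was at 9457, 8148, 5247 and 6484 FPKM in LD and 5090.0, 5923, 2809 and 4229 FPKM in ADV. Only A91 reached into the LD range, and the log2 fold change was −0.72 (SE 0.28, limma adjusted p = 0.385). Mgll, which splits monoacylglycerol, was at 44.0, 41.2, 36.3 and 56.0 FPKM in LD and 29.8, 34.8, 20.3 and 42.0 FPKM in ADV (−0.51, SE 0.22, adjusted p = 0.412, and −0.66 to −0.32 with 1 mouse left out). Cd36 was at 32.6, 33.6, 27.1 and 31.1 FPKM in LD and 27.6, 55.5, 36.5 and 29.2 FPKM in ADV (0.21, SE 0.20, adjusted p = 0.653). The value for Cd36 rested on A91 and was −0.0041 without it. The droplet proteins Plin2 and Plin5 had values of −0.17 (−0.25 without A75 to −0.09 without L104) and −0.38 (−0.66 without A115 to −0.11 without A94). The lipases Pnpla2 and Lipe had values of −0.27 and 0.09, or −0.40 to −0.16 and 0.03 to 0.18 over the mice left out.

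**Figure D3:**
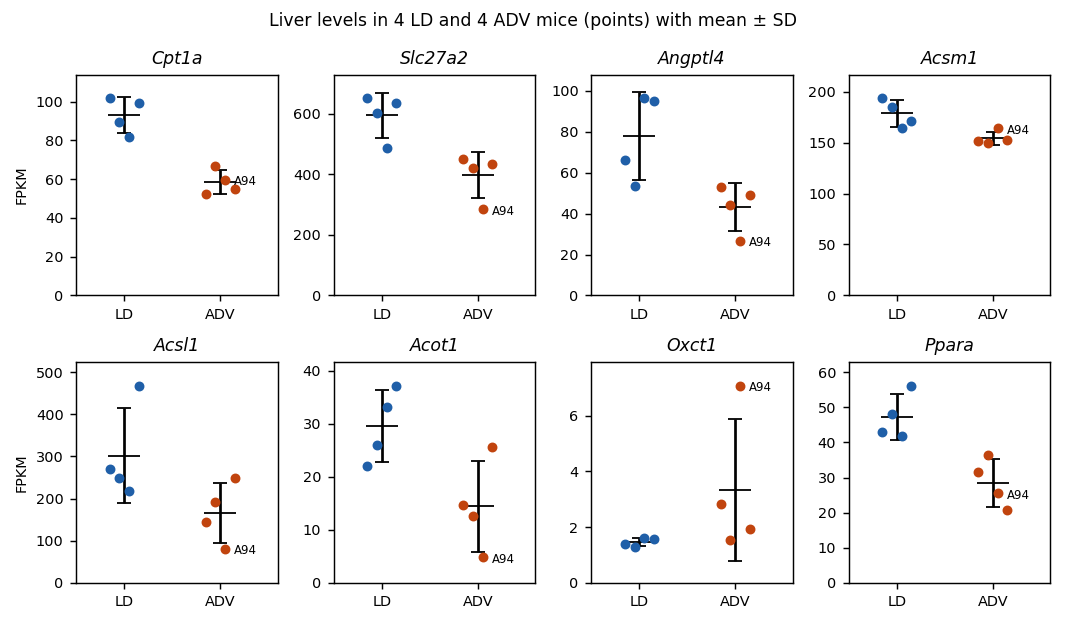
FPKM in each liver for 7 members named in the text and for Ppara, with 1 point per mouse (A94 is marked), LD and ADV side by side, a horizontal line at the mean, bars of 1 SD (n = 4 each) and a vertical axis from 0 in each panel. Cpt1a lies in separate ranges of 81.7 to 102 FPKM in LD and 52.6 to 66.8 FPKM in ADV, whereas Acsl1 and Acot1 overlap through A115.

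Of the ketone body genes, Oxct1 was the member with the largest positive value in the liver. It was at 1.40, 1.29, 1.61 and 1.57 FPKM in LD and 2.82, 1.54, 7.08 and 1.93 FPKM in ADV (log2 fold change 0.89, SE 0.40, limma adjusted p = 0.424), with 0.45 without A94 and 1.16 without A91. The liver of A94 alone was several-fold above every LD liver. Acat1, the mitochondrial acetoacetyl-CoA thiolase, and Bdh1, which interconverts the ketone bodies, had values of −0.42 and −0.17, the latter being −0.06 without L63 and −0.29 without L86. The regulators were low in the liver: Fgf21, a fasting hormone of the liver, was at 0.301 to 1.21 FPKM in LD and 0.210 to 0.543 FPKM in ADV (−0.81, SE 0.39), and Pdk4 was at 1.05 to 4.79 and 1.41 to 2.01 FPKM (−0.17). The value of Pdk4 rested on L86, the highest LD liver, and was 0.27 without it and −0.43 without L63.

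Neighbouring genes of the pathway were described by a second list of 42 genes, of which 41 were measured and 36 tested in the liver. Of these, 28 had a log2 fold change below 0 (median −0.20), against 34.3% of all genes, 9 had an unadjusted p under 0.05 (7 lower and 2 higher, against 3.13% and 8.65% of all genes), and 0 were called by limma. Without A94, 24 of the 36 lay below 0 (median −0.14), against 45.9% of all genes. The groups did not overlap in Ppara, Mlycd, Slc22a5, Acsf2 and G0s2, which were lower in ADV, and in Plin3, which was higher, against 1.89% of all genes lower and 6.94% higher. Ppara itself was at 42.9, 48.1, 41.9 and 56.2 FPKM in LD and 31.5, 36.4, 25.5 and 20.6 FPKM in ADV (−0.75, SE 0.18, limma adjusted p = 0.296, exact permutation p = 0.0286). G0s2, an inhibitor of the lipase encoded by Pnpla2, was at 155, 184, 108 and 208 FPKM in LD and 42.1, 92.2, 74.9 and 65.1 FPKM in ADV (−1.27, SE 0.26, adjusted p = 0.247). In both genes all 4 ADV livers lay under the LD range, A91 included. Slc22a5, the carnitine transporter of the cell surface, had a value of −0.68, Pdk1 −0.61, Acad10 −0.53, Aldh9a1 −0.43, Acsf2 −0.30 (−0.18 without A75) and Mlycd, malonyl-CoA decarboxylase, −0.15 (−0.07 without A75), whereas Plin3 had 0.37 and Fabp4 1.17 (0.70 without A94).

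Of 15 further targets of PPAR-alpha, 14 were tested and 10 lay below 0 (median −0.26), against 34.3% of all genes, among them Acot3 (−0.99), Pex11a (−0.68), which acts in peroxisome division, and Acot4 (−0.51). The largest of the 4 above 0 were the fatty acid hydroxylases Cyp4a31 (0.84, and 0.31 to 1.38 with 1 mouse left out), Cyp4a14 (0.73, 0.31 to 1.39) and Cyp4a12a (0.49, 0.01 to 0.77). They belong to a family of copies, whose shared reads may have been removed as poorly mapped. Without A94, 8 of the 14 lay below 0 (median −0.07), against 45.9% of all genes. An unadjusted p under 0.05 was found for 4 of the 14, all lower, against 3.13% of all genes, and none was called by limma.

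Other cell types and the clock differed between the same livers. All 9 leukocyte markers had a log2 fold change above 0 (median 0.79), with summed levels of 76.9 to 124 FPKM in LD and 114 to 414 FPKM in ADV, highest in A94, and none of the defining markers was at 0 in all livers. All 5 markers of stellate cells and fibroblasts were above 0 as well (median 1.91), with sums of 108 to 124 FPKM in LD and 151 to 297 FPKM in ADV, again highest in A94. Without A94 the median was 0.55 over the 8 leukocyte markers then tested and 0.95 over the 5 stellate and fibroblast markers, and all of them were still above 0. Of all genes, 34.3% lay below 0 with A94 and 45.9% without it. The summed level of 6 markers of white adipocytes was 13.3 to 15.7 FPKM in LD and 18.5 to 69.7 FPKM in ADV, but was mostly Fabp4 (64.7 FPKM in A94). The other adipocyte markers did not follow it, with Adipoq at 0 in A94 and at 2.10 FPKM in A75, and 4 of the 6 markers at 0 in A94. The summed level of 4 markers of epithelial injury was 12.0 to 38.3 FPKM in LD and 24.7 to 229 FPKM in ADV, highest in A94. Of each list 2 genes passed the filter, and all had values above 0 (medians 0.92 and 1.31, and 0.67 and 0.74 without A94). The 7 hepatocyte markers had sums of 55190 to 67923 FPKM in LD and 55457 to 66681 FPKM in ADV. Of their log2 fold changes 3 were above and 4 below 0 (median −0.05). The sum was mostly Alb, at 41459 to 52061 FPKM over the livers, and single markers differed from it. In A94, Cps1 was at 373 FPKM (LD 598 to 707) and Tat at 444 FPKM (LD 655 to 1235). Fgb was at 2755 FPKM there (LD 2191 to 2664). Of 13 clock genes 12 were tested and 10 lay below 0 (median −0.44, and −0.25 without A115), against 34.3% of all genes. An unadjusted p under 0.05 was found for 2 (Per2 and Cry2, both lower), against 3.13% of all genes lower. By limma 0 were called, and only Cry2 was lower without overlap, against 1.89% of all genes. The clock gene Dbp was at 28.6, 21.98, 13.4 and 8.25 FPKM in LD and 2.40, 37.8, 33.7 and 1.33 FPKM in ADV, and Arntl was at 0.700, 1.30, 2.496 and 3.95 FPKM and 5.91, 1.06, 0.723 and 6.72 FPKM. A75 and A115 thus had low Dbp with high Arntl and A91 and A94 the reverse. Among the LD livers Dbp fell from L63 to L104 while Arntl rose. Members were lowest in A94 and A75, which differed in both clock genes, and highest in A91, and the part of these cell types and of the clock in the values of the members was not tested.

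**Figure D4:**
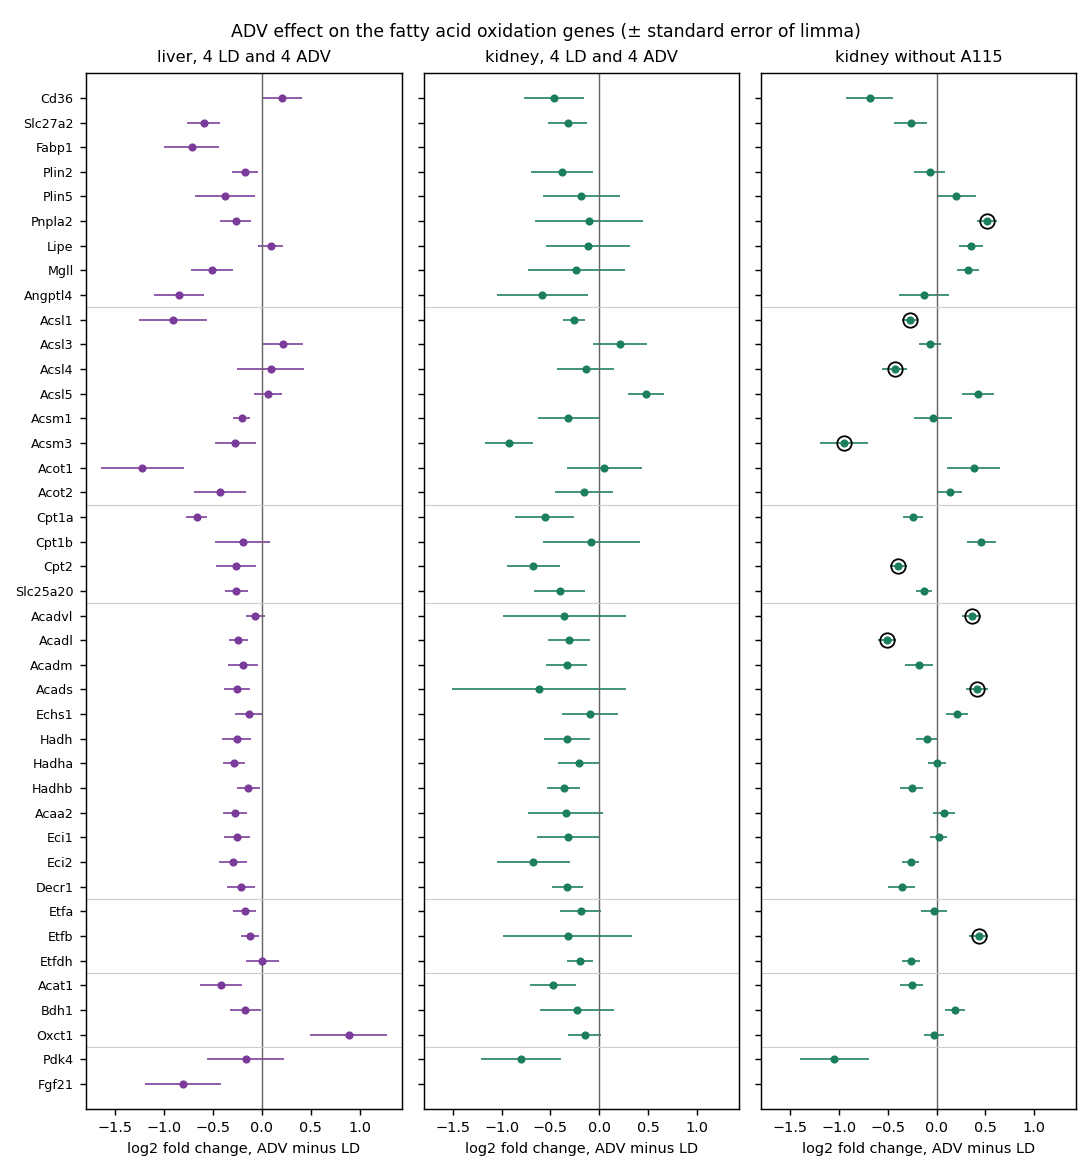
Log2 fold change, ADV minus LD, of each member on the log2(FPKM + 0.1) scale in the liver, in the kidney and in the kidney without A115, grouped by role, with bars of 1 SE from limma and circles around values with an adjusted p under 0.05. In the liver 34 of 41 values are below 0 and in the kidney 36 of 39, and without A115 23 of 39 are below 0 and 9 are circled.

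In the kidney the values depended on A115. Of the members 39 passed the filter on low values, all but Fgf21, which was listed at 0 in 7 of 8 kidneys, and Fabp1. None of the 39 was called (0% of the 14452 genes tested), the limma adjusted p being 1.0 for each, and 448 genes had an unadjusted p under 0.05. By limma-voom 0 members were called as well. The log2 fold change was below 0 for 36 of the 39, against 53.6% of all genes, with medians of −0.32 and −0.02. At an unadjusted p under 0.05, Cpt2 and Acsm3 were lower and Acsl5 was higher, against 1.35% and 1.75% of all genes. The groups did not overlap in Cpt2, Eci2, Acsl1 and Acsm3, all lower in ADV, against 1.83% of all genes lower and 0.962% higher.

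The median deviation of the members from the LD mean was −1.03 in A115, but −0.12, −0.01 and −0.09 in A75, A91 and A94, with the LD kidneys between −0.03 and 0.06. A115 was the lowest ADV kidney in 29 of the 39 members. Its deviation from the other ADV kidneys followed the GC content of the transcripts: over the 39 members Spearman's rho was −0.90 with GC content and 0.42 with exon length, as a description across genes, which are not independent. The other ADV kidneys ran the other way against LD, with a rho of 0.73 over the members and 0.65 over 13929 genes. Split by GC content, the 20 members of 38.4% to 51.1% GC had a median log2 difference of −0.18 for A115 minus the other ADV kidneys and −0.25 for the other ADV kidneys minus LD. The 19 members of 51.3% to 60.1% GC had −1.68 and 0.19. In the livers the rho of single libraries with GC content over all genes lay between −0.27 and 0.19, and over the members the liver fold change had a rho of −0.34.

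**Figure D5:**
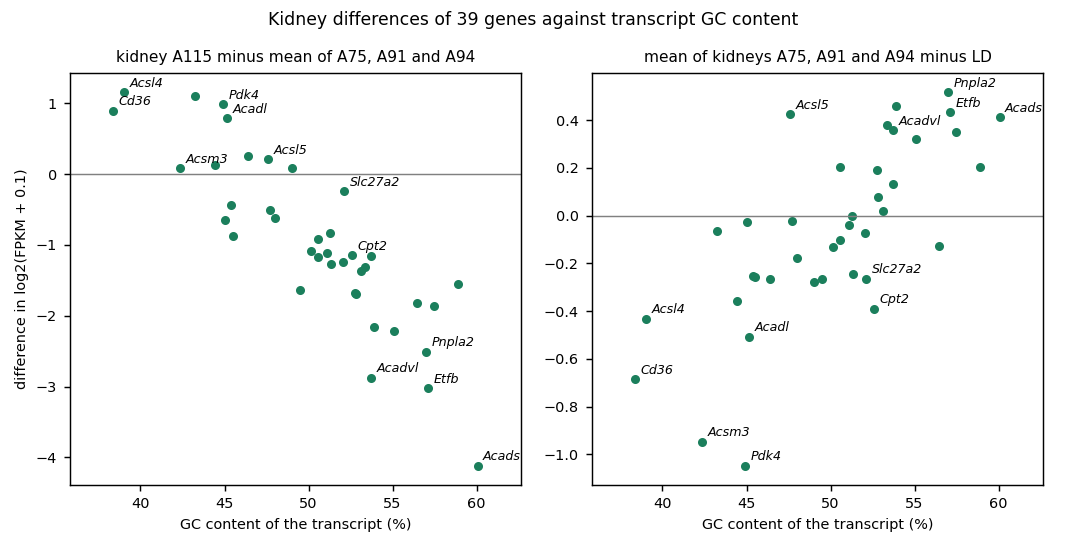
Log2 difference of each of the 39 members against the GC content of its transcript in percent, for the A115 kidney minus the other ADV kidneys and for the other ADV kidneys minus LD. The first decreases with GC content (rho −0.90), to −4.12 for Acads at 60.1% GC, and the second increases (rho 0.73).

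Acads, the short-chain acyl-CoA dehydrogenase and the member with the highest GC content, shows the pattern in single values: 57.6, 63.7, 63.6 and 75.4 FPKM in LD and 79.3, 94.7, 85.5 and 4.87 FPKM in ADV. Etfb was at 187, 209, 206 and 223 FPKM in LD and 261, 282, 292 and 34.1 FPKM in ADV. For both, 3 ADV kidneys were above every LD kidney and A115 was far below all of them. Acadl, at 45.1% GC, did the opposite, with 221, 203, 204 and 196 FPKM in LD and 135, 160.4, 141 and 250.3 FPKM in ADV.

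Without A115 the kidney fit called 2724 of 14475 genes, 16.1% of all genes as higher and 2.68% as lower, and 9 members. Acads, Acadvl, Etfb and Pnpla2 rose in this fit by 0.41, 0.36, 0.43 and 0.52 on the log2 scale, and Cpt2, Acadl, Acsl1, Acsm3 and Acsl4 fell by 0.39, 0.51, 0.28, 0.95 and 0.43. The median of all genes was then 0.20 and that of the members −0.07, and 23 of the 39 lay below 0, against 32.2% of all genes. With A115 left out and scaling by the median ratio, 8.31% of all genes were higher and 7.7% lower, and 9 members fell and 0 rose: Acadl, Acsl1, Acsl4, Acsm3, Cpt2, Eci2, Etfdh, Pdk4 and Slc25a20. With A115 left out and each library corrected for its trend with GC content, 0 members and 0% of 13936 genes were called, 15 members had an unadjusted p under 0.05 (14 lower and 1 higher, against 9.86% and 8.88% of all genes), and the smallest adjusted p was that of Cpt2 (0.0809). In this last fit Acads, Etfb and Pnpla2 had values of −0.29, −0.11 and −0.02, and Acadvl 0.02. The calls of the kidney thus changed with the scaling, and the direction of Acads, Etfb and Pnpla2 changed both with the library and, once A115 was left out, with the GC correction. For these 4 genes no direction held across the fits.

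A few members were lower or higher in the kidney with and without A115. Acsm3, a medium-chain acyl-CoA synthetase (chr7:119760923-119784896, plus strand), was at 247, 222, 183 and 319.6 FPKM in LD and 130.1, 166, 87.1 and 131 FPKM in ADV. Every ADV kidney was below every LD kidney, with means of 243 ± 57.4 and 129 ± 32.4 FPKM (SD, n = 4 each). The log2 fold change was −0.93 (SE 0.25, limma adjusted p = 1.0, exact permutation p = 0.0286), and −0.95 without A115 (adjusted p = 0.0330). Cpt2 (chr4:107903982-107923589, minus strand) was at 73.0, 70.4, 63.5 and 73.1 FPKM in LD and 51.8, 53.4, 54.6 and 24.1 FPKM in ADV. A75, A91 and A94 lay close together below the LD range and A115 lay lower still, and the log2 fold change was −0.68 (SE 0.27, exact permutation p = 0.0286) and −0.39 without A115 (adjusted p = 0.0198).

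Acsl1, which in the kidney is one of several long-chain synthetases, was at 57.1, 50.2, 55.8 and 55.4 FPKM in LD and 47.0, 44.4, 43.7 and 47.7 FPKM in ADV (−0.26, SE 0.12, exact permutation p = 0.0286). Here A115 was level with the other ADV kidneys. Eci2, an enoyl-CoA isomerase for unsaturated chains, was at 78.9, 77.1, 72.2 and 83.7 FPKM in LD and 59.1, 66.9, 68.5 and 20.8 FPKM in ADV (−0.67, SE 0.37, and −0.27 without A115). Pdk4 was at 10.7, 7.70, 22.4 and 10.8 FPKM in LD and 8.41, 4.60, 4.74 and 11.3 FPKM in ADV (−0.80, SE 0.41, and −0.50 without L86). L86 was high in LD, and A75 and A115 overlapped the LD range.

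Acsl5 was at 16.2, 16.8, 23.6 and 18.1 FPKM in LD and 28.0, 20.0, 27.4 and 28.9 FPKM in ADV (0.48, SE 0.18, exact permutation p = 0.0571), and 0.43 without A115. Only A91 lay within the LD range. Acsl3 was at 7.04, 7.41, 7.6 and 6.14 FPKM in LD and 7.03, 6.55, 6.55 and 14.5 FPKM in ADV, and its log2 fold change of 0.21 (SE 0.27) was −0.07 without A115. Acot1 was at 15.5, 15.0, 27.3 and 24.5 FPKM in LD and 18.2, 30.3, 31.3 and 10.4 FPKM in ADV (0.05, SE 0.39, and 0.38 without A115), with values that did not separate the conditions.

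Of the second list 35 genes were tested in the kidney, 28 lay below 0 (median −0.27), against 53.6% of all genes, 4 had an unadjusted p under 0.05 (3 lower and 1 higher, against 1.35% and 1.75%) and 0 were called by limma. Without A115, 14 of the 35 lay below 0 (median 0.10), against 32.2% of all genes (median 0.20). Ppara was at 22.2, 20.6, 18.7 and 18.9 FPKM in LD and 14.1, 17.6, 13.3 and 6.57 FPKM in ADV (−0.72, SE 0.29, exact permutation p = 0.0286), and −0.43 without A115. Ppara and Abhd5, the activator of the lipase encoded by Pnpla2 (−0.21), were lower without overlap and Fabp3, the fatty acid binding protein of muscle, was higher without overlap (0.71), against 1.83% and 0.962% of all genes. Acsm2 (−0.62) and Lipa (−0.44) had an unadjusted p under 0.05. Of the further PPAR-alpha targets 14 were tested and 11 lay below 0 (median −0.41), against 53.6% of all genes, or 9 without A115 (median −0.16), against 32.2%. Ehhadh (−0.67) and Vnn1 (−0.28, and −0.11 without A75) were among 3 that were lower without overlap, against 1.83% of all genes, while Cyp4a10 had −0.46. None of the 14 was called by limma, and 3 had an unadjusted p under 0.05, all lower, against 1.35% of all genes.

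In the same kidneys the markers of the nephron moved with A115. Of 6 proximal tubule markers all had a log2 fold change below 0 with A115 (median −0.24), and 4 were above and 2 below 0 without it (median 0.21, 2 called by limma). The 4 distal nephron markers moved likewise, with 3 below 0 with A115 (median −0.11) and 0 below 0 without it (median 0.34, 1 called). Of all genes, 53.6% lay below 0 with A115 and 32.2% without it, when 16.1% were called higher and 2.68% lower. The summed level of the proximal tubule markers, 28828 to 41855 FPKM in LD and 20005 to 46498 FPKM in ADV, was mostly Kap, an androgen-regulated transcript of the proximal tubule, which was at 45922 FPKM in A115. The other 5 summed to 2352 to 2918 FPKM in LD, 3329 to 3795 FPKM in A75, A91 and A94, and 577 FPKM in A115. Slc34a1, the sodium-phosphate cotransporter, was at 801 to 992 FPKM in LD, 1292 to 1553 FPKM in these 3 ADV kidneys and 154 FPKM in A115.

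All 9 leukocyte markers were above 0 (median 0.79, and 1.07 without A115), with sums of 109 to 306 FPKM in LD and 150 to 1012 FPKM in ADV, highest in A94. All 5 markers of stellate cells and fibroblasts were above 0 as well (median 0.83, and 1.03 without A115), with sums of 45.3 to 77.9 FPKM in LD and 56.8 to 154 FPKM in ADV, highest in A75. Of all genes, 53.6% lay below 0, or 32.2% without A115. Of 4 markers of epithelial injury, 3 were above 0 (median 0.33), or 2 without A115 (median −0.26), with sums of 23.6 to 226 FPKM in LD and 21.1 to 325 FPKM in ADV. No marker of these lists was at 0 in all kidneys. The part of these cell types in the values of the members was not tested.

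The difference between the organs in the effect of ADV was tested directly. None of 40 members was called (0% of 14379 genes, limma), with 536 genes at an unadjusted p under 0.05. Oxct1 was the only member at that level, at 1.04 (SE 0.46, limma adjusted p = 1.0), with a log2 fold change of 0.89 in the liver (0.45 without A94) and −0.15 in the kidney (−0.02 without A115). Liver and kidney came from the same mice, and the fit with the mouse as replicate block called 0 members as well, with 2 at an unadjusted p under 0.05 (Oxct1 and Acsm3). Without A115, 415 genes and the member Etfb were called (−0.55, adjusted p = 0.0433), Etfb being a gene whose kidney value turned from −0.32 to 0.43 with that library. Cpt1a had −0.67 in the liver and −0.56 in the kidney (−0.24 without A115), and Acsm3 had −0.27 (−0.45 without A91 and −0.17 without A75) and −0.93, without a difference between the organs that passed the test.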

How the data were processed

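Libraries of 2 organs from 4 mice per condition were analysed. The authors used STAR (2.5.4b per the labels) with the mm10 build, and Homer to count over exons of the UCSC known canonical set. Adaptors and poorly mapped reads were removed before counting (Trimmomatic, SAMtools). The deposited values are FPKM, although the column names say RPKM, divided by each library's own total and not normalized between libraries. Value, exon length and total gave steps of 0.5 fragment (tolerance 0.05 of a step) for 100% of the values. Coordinates are those of the deposited tables (mm10).

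Values were tested as log2(FPKM + 0.1), a scale that understates changes of low genes, with limma 3.58.1 in R 4.3.3 (lmFit, eBayes with trend) over genes with a mean above 0.5 per 1000000 fragments, with Benjamini-Hochberg adjustment, and called at an adjusted p under 0.05. The count test of the study was not run, and limma-voom on the recovered fragments was used as an alternative. Exact permutation tests were two-sided over 70 assignments. The organs were compared over all 16 libraries in 4 groups. The members and lists were chosen with earlier results of these data known. Members were named in every mouse if their unadjusted p was under 0.05, their groups did not overlap, or they had one of the 3 largest values in either direction, and for the organs the 4 largest. Other members shown in single mice (Acads, Etfb, Acadl in the kidney, Acsl4, and Cpt2 in the ADV livers) were chosen after their values were seen. Some genes of the lists are not reported here.

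GC content was that of the transcript closest in length to the exon length (97.1% of the liver and 96.2% of the kidney genes tested had one), and its correction subtracted a lowess trend (span 0.3). This correction and the kidney fits without A115 that changed the scaling were added after the data were seen. The mitochondrial share was taken over 9 genes on chromosome M. Same-numbered liver and kidney came from the same mouse. The correlation of their deviations from the group means over 14379 genes was 0.12, 0.07, 0.16 and 0.08 in LD and −0.01, 0.29, 0.51 and 0.05 in ADV. The procedure was also tried on simulated data, with a log2 difference of 1.5 between the conditions added to 200 genes per organ. Of these 200, it called 158 in the liver and 94 in the kidney, along with 3 and 7 other genes. With all mice, the members reached at most −1.23 in the liver (Acot1) and −0.93 in the kidney (Acsm3), less than the added difference. A count of 0 members called therefore does not show that the members were unchanged. Nothing in the sources used here gives the sequencing provider of each library.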

Additional observations from a re-analysis of the deposited data

Results flagged for a closer look

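Within each group of 4 mice, 12 of the members' values stood apart from the other 3 mice by Dixon's ratio, out of 160 groups examined. Chance alone gives about 1 in 20 groups. Of the 12, 6 were in the kidney of A115, which was low for Cpt2 (24.1 FPKM, others 51.8 to 54.6), Acadvl (15.8, others 111 to 122), Etfb (34.1, others 261 to 292) and Oxct1 (267, others 369 to 387), and high for Acsl3 (14.5, others 6.55 to 7.03) and Acsl4 (25.3, others 10.5 to 11.8). The GC content of these transcripts is 52.6%, 53.7%, 57.1% and 47.7% for the low ones and 43.2% and 39.03% for the high ones. The part of GC content in these values was not tested gene by gene.

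The kidney of A91 was low for Acsl5 (20.0 FPKM, others 27.4 to 28.9). In the LD kidneys, L86 was high for Plin2 (52.5, others 39.6 to 41.1) and L104 for Plin5 (1.17, others 1.002 to 1.03). In the livers, A94 was high for Acsl4 (36.4, others 10.2 to 12.9), in the library with the highest leukocyte and stellate cell markers, and L104 was high for Cpt2 (59.3, others 46.6 to 47.9) and Acsl4 (15.9, others 13.8 to 14.0).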

How the results depend on the processing

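The counts of members called and the median fold changes were recomputed under other pseudocounts (0.5 and 1), filters, scalings, limma settings, limma-voom on recovered fragments, the GC correction and leaving out each mouse in turn. In the liver 0 members were called under every alternative, with all genes called going from 1 to 6 without a filter and to 9 without A91. In the kidney the count of members called was 0 with all mice, ranged from 0 to 9 when 1 mouse was left out (9 without A115) and was 9 with A115 left out and median ratio scaling. All genes called went from 0 to 2724 and 2318 in these fits. For the organ difference of the ADV effect, leaving out 1 mouse gave 0 to 1 members, and 415 genes without A115. Between the organs, members called as higher in liver and in kidney were 13 and 11, 27 and 7 with median ratio scaling or the GC correction, and 15 and 16 without A115. The paired fit with the mouse as replicate block gave 14 and 12, adding Bdh1 and Pnpla2, and changed no other call. Of 556 alternative values for 30 named results, 541 kept direction and call, 8 gained a call (all in the kidney without A115) and 7 changed sign, none of them called: Cd36 in the liver (−0.0041 without A91, up to 0.33 when other mice were left out), Acsl3 in the kidney (−0.065 without A115, up to 0.31 without other mice, −0.25 with A115 left out and median ratio scaling) and Acot1 in the kidney (−0.15 to 0.38 over the mice left out, below 0 without A91, A94, L63 or L65). Outside these 30, the liver values of Acadvl, Etfdh, Acsl4, Pdk4 and Acsl5 (0.06, and −0.06 without A91) also changed sign when 1 mouse was left out. Which library weighs most follows from leaving it out, and other causes were not tested.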
